A study of Mus musculus with 9 samples.

Results

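Mouse embryonic stem cells (ESCs) transcribe Nanog, Tdgf1, Cdh1 and Platr14, and in a table that counts RNA only over transposable elements these genes are visible through the repeats that lie inside their transcripts. Described here are 5 such repeat copies in 4 genes, out of 623916 copies in the table: a B2_Mm1a and a B1_Mus2 in Nanog, a B1F1 in Tdgf1, a B1_Mur3 in Cdh1 and an RLTR16B_MM at the start of Platr14. They were picked by position after their levels in these same libraries were known, with the difference between G4 and WT in view, so their own levels are given as a description without a test. All 5 passed the filter on low counts that left 13278 copies. The tests concern other repeat copies of the same loci and other genes of the same pathways. Copies in the exons of these genes share divided reads with the chosen ones, so they are not independent of the choice.

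The libraries came from WT, G1 Terc-/- and G4 Terc-/- ESCs, 3 libraries each, of strain C57BL/6, sequenced from total RNA of early-passage cells after feeders had been taken away. Terc encodes the RNA template of telomerase. Per the study's methods, G1 lines came from Terc+/- intercrosses and G4 lines from intercrosses of third-generation Terc-/- mice, so both Terc-/- groups lack the gene and differ in how many generations had passed without it. Each group stands for its cell line or lines, and line and generation cannot be told apart. The labels do not say whether the 3 libraries of a group were separate cultures, so the p-values measure the spread between these libraries, which may be technical. Terc itself holds no repeat copy in the table and could not be checked. Libraries held 918879 to 1137257 counts on repeats, and levels are given as CPM, counts relative to this total after TMM scaling, which sets a common scale from the bulk of the copies. In bulk RNA of this kind, fewer cells of a type and less RNA per cell cannot be told apart.

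Nanog is a homeodomain transcription factor that holds ESCs in the pluripotent state. Tdgf1, also called Cripto, is a membrane-anchored co-receptor through which Nodal signals to its receptors, and it is high in pluripotent cells. Cdh1 is E-cadherin, the adhesion molecule that joins epithelial cells and also the cells of an ESC colony. Platr14 is a long noncoding RNA of the Platr group, a set of transcripts named for their association with pluripotency. B1 and B2 are short interspersed elements copied from small structural RNAs, and many sit in the 3′ untranslated regions (UTRs) of genes, where they are read as part of the host messenger RNA. RLTR16B_MM is the long terminal repeat (LTR) of an endogenous retrovirus, and an LTR can carry a promoter.

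By the GENCODE M21 annotation (mm10), both Nanog copies lie in the last exon, in the 3′ UTR, at chr6:122713626-122713812 (187 bp) and chr6:122713841-122713990 (150 bp), on the strand opposite to the gene (chr6:122707489-122714633, plus strand). The Tdgf1 copy at chr9:110939796-110939939 (144 bp) and the Cdh1 copy at chr8:106669702-106669858 (157 bp) also lie in 3′ UTRs, each on the strand of its gene. The Platr14 copy at chr2:104558978-104559658 (681 bp) is placed otherwise: it straddles the annotated start of the gene (chr2:104559163-104571429, plus strand), and 72.8% of it is exon.

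Of 6 annotated Platr14 transcripts, 5 start inside this LTR, at bases 186, 202, 207, 215 and 482 of it, and the sixth starts downstream at 104567197. The first bases of the outermost transcript are shown as LTR sequence from which this RNA is annotated to begin. Also shown is the stretch of the LTR that holds a CATTGT (a Sox-type motif, in capitals) 125 bases before the RefSeq start at 104559459. This stretch lies downstream of the starts at bases 186 to 215 of the LTR. The third line is the Nanog promoter, 75 bases before the start at 122707489, where capitals mark an octamer-type and a Sox-type motif side by side. All are plus strand, 5′ to 3′. The transcript bases are from GENCODE M21 and the promoter bases from RefSeq (GRCm38.p6).
Platr14 transcript from 104559163: gcaggagagagttttaggtcttttggaatg
Platr14 chr2:104559322-104559351: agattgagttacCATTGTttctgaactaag
Nanog chr6:122707406-122707435: cagcttctTTTGCATTACAATGtccatggt

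Windows of 250 bases before to 50 after the start were searched on both strands for ATGCAAA (octamer), CATTGT (Sox), AAGGTCA (Esrrb), TTCNNNGAA (Stat) and GGGTGTGG (Klf). Of 32851 promoter windows, 4.63% held ATGCAAA, 12.6% CATTGT, 4.72% AAGGTCA, 8.30% TTCNNNGAA and 3.56% GGGTGTGG. The Sox and octamer letters next to each other, with 0 or 1 base between, were in 3 windows, of which 2 are the overlapping windows of Nanog and the other is that of Acyp1. The Platr14 window, that of the start at 104559459 only, held CATTGT alone, and the Tdgf1 window held none of these letters. The other Platr14 starts in the LTR had no window of their own. A match is a description of letters and not evidence of binding.

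Levels of both Nanog copies were ordered WT, G1, G4. The B2_Mm1a copy had 467, 476 and 549 CPM in the WT libraries, 948, 759 and 825 in G1, and 1145, 1204 and 1249 in G4. The B1_Mus2 copy had 449, 521 and 556 CPM in WT, 910, 792 and 871 in G1, and 1492, 1735 and 1810 in G4. For neither copy did any pair of groups overlap.

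The Nanog B2_Mm1a copy was at 498 ± 44.9 CPM (SD, n = 3) in WT, 844 ± 96.0 in G1 cells and 1200 ± 52.3 in G4, a log2 fold change of 0.76 (SE 0.09) for G1 and 1.27 (SE 0.09) for G4 against WT. The B1_Mus2 copy started from a similar level in WT (509 ± 54.6 CPM) and reached 1679 ± 166 in G4, a log2 fold change of 1.72 (SE 0.09), or 3.30-fold. Its G1 level, 858 ± 60.5 CPM, was 0.75 (SE 0.09) above WT on the log2 scale.

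Tdgf1 B1F1 was the copy with the highest level of the 5 and the fifth of all copies in the table by total count. Its CPM was 1937, 2076 and 2099 in WT, 3140, 3002 and 3088 in G1, and 7468, 9206 and 8443 in G4. The G1 libraries stood apart from WT, and G4 stood far above both. The mean was 2037 ± 87.9 CPM in WT, 3077 ± 69.8 in G1 cells and 8372 ± 871 in G4 (SD, n = 3), with log2 fold changes against WT of 0.59 (SE 0.07) in G1 and 2.04 (SE 0.07) in G4. This copy alone held 31.0% of all counts given to the name B1F1, and its values were not whole in any library, so part of its reads had been divided with other copies. Added up over the exonic and partly exonic copies of the same gene, counts were whole within 0.02 in 9 of 9 libraries at Nanog, 8 at Tdgf1 and 8 at Platr14.

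Cdh1 B1_Mur3 was the copy that was lower in G4. Its CPM was 1239, 1178 and 1149 in WT, 1088, 1188 and 1127 in G1, and 541, 515 and 464 in G4. WT and G1 overlapped, and every G4 library was below every other library. The means were 1189 ± 45.6, 1135 ± 50.6 and 506 ± 39.2 CPM (SD, n = 3), a log2 fold change of -0.07 (SE 0.08) in G1 and of -1.23 (SE 0.08), or 2.35-fold lower, in G4 against WT.

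In G1 the Platr14 RLTR16B_MM overlapped WT as well. Its CPM was 193, 223 and 229 in WT, 272, 221 and 234 in G1, and 989, 1140 and 1056 in G4. WT and G1 overlapped, and G4 stood apart. The mean was 215 ± 19.2 CPM in WT, 242 ± 26.4 in G1 cells and 1062 ± 75.8 in G4 (SD, n = 3), with a log2 fold change against WT of 0.17 (SE 0.11) in G1 and 2.30 (SE 0.10), or 4.94-fold, in G4. It held 57.9% of all counts given to its repeat name.

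**Figure D1:**
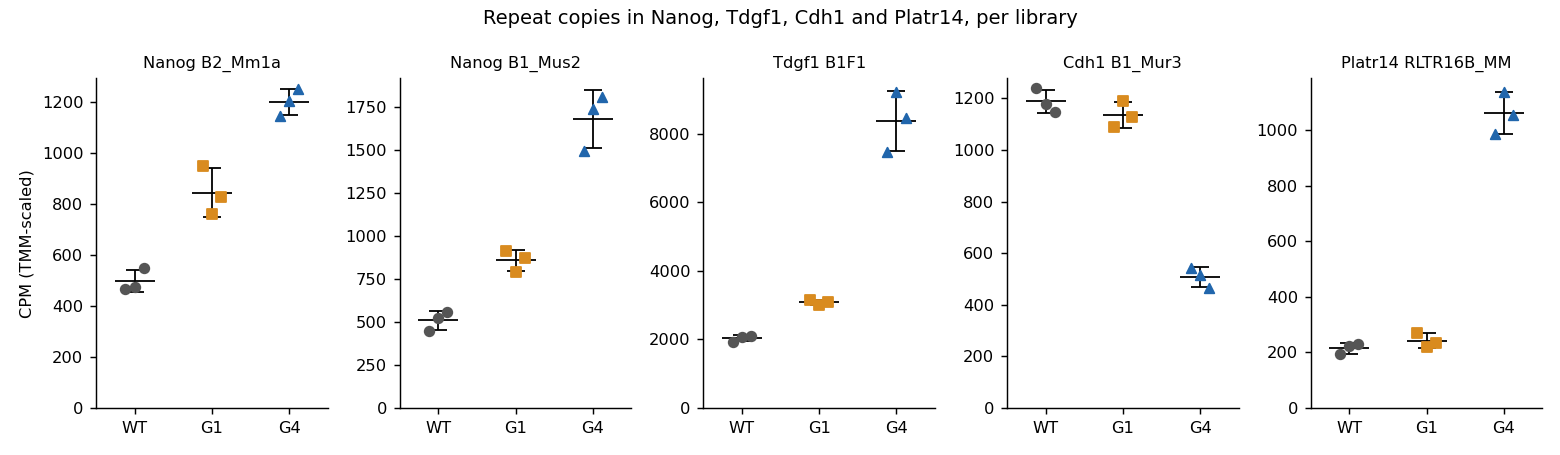
CPM of each of the 5 copies in every library (points; y axis from 0, a different scale in each panel), with the group mean and SD (black). In G4 the Nanog, Tdgf1 and Platr14 copies are above all WT libraries and the Cdh1 copy is below them, while the G1 libraries are apart from WT for Nanog and Tdgf1 and overlap WT for Cdh1 and Platr14.

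Thus 4 copies were higher and 1 was lower in G4 than in WT, where 21.3% of all copies tested were called higher and 21.3% lower at an adjusted p under 0.05. Since the copies were chosen on this contrast, nothing is read from that count. G4 against G1 gave log2 fold changes of 0.51 and 0.97 for the Nanog B2_Mm1a and B1_Mus2 copies, 1.44 for Tdgf1, -1.17 for Cdh1 and 2.13 for Platr14. These contrasts share libraries with G4 against WT and are not separate evidence. Per kilobase of copy, which is not a level of the whole gene since the pair of Nanog copies in 1 exon differ on this scale, the order in WT was Tdgf1 (14147 CPM per kb), Cdh1 (7571), Nanog B1_Mus2 (3390), Nanog B2_Mm1a (2661) and Platr14 (316). In G4 it was Tdgf1 (58140 CPM per kb), Nanog B1_Mus2 (11194), Nanog B2_Mm1a (6415), Cdh1 (3225) and Platr14 (1559), with Cdh1 below both Nanog copies.

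The pair of Nanog copies lie 28 bases apart in the same exon. The B2_Mm1a copy took 51.0%, 47.7% and 49.7% of the counts of both in WT, 51.0%, 48.9% and 48.6% in G1, and 43.4%, 41.0% and 40.8% in G4. WT and G1 overlapped, and all G4 libraries were lower. These shares are made of the counts that chose the copies and are given without a test. The B1_Mus2 values were whole in all 9 libraries and the B2_Mm1a values in 5 of them.

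Other repeats in and within 5 kb of the 4 genes come next. There were 209, of which 29 passed the filter: 6 at Nanog, 10 at Tdgf1, 13 at Platr14 and none of 106 at Cdh1. In G4 against WT, 22 of the 29 were higher and none lower. By edgeR's quasi-likelihood test 1 of 6 rose at Nanog, 9 of 10 at Tdgf1 and 12 of 13 at Platr14. A copy that reached the filter, 3 libraries with at least 10.1 CPM, only through G4 had to be higher there, which holds for none of the Nanog copies, 2 at Tdgf1 and 5 at Platr14. Of the others 1 of 6, 7 of 8 and 8 of 8 rose, where 15.8% of all copies that passed without G4 did so. In G1 against WT, where 2.41% of all copies were called higher and 4.36% lower, 5 of 6 rose at Nanog and 4 of 10 at Tdgf1, and at Platr14 none passed in either direction. At Nanog 3 of the 5 had passed the filter only through G1, and of the other 3 copies 2 rose, beside 2.52% of all copies that passed without G1. In G4 against G1, with 19.0% higher and 19.2% lower over all copies, the numbers higher were 1, 3 and 10, and 3 were lower at Nanog, in counts that include the copies just named. Copies within a transcript share its reads and are not independent of each other or of the chosen copies. The counts include exonic copies whose reads are divided with the chosen ones, so they are not separate evidence. At Nanog the only copy that rose in G4 against WT was such a copy, the exonic ID4_, and no intronic copy passed. At Tdgf1 they include both PB1D9 copies of the last exon, and at Platr14 both RMER19B copies and the exonic B2_Mm2.

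Exonic copies of Nanog and Tdgf1, which share divided reads with the chosen ones, were higher in G4 as well. They partly restate the counts that chose the copies, so their values are given without a test. The ID4_ copy in the last exon of Nanog (chr6:122714017-122714093) had 292, 304 and 295 CPM in WT, 477, 475 and 472 in G1, and 773, 1036 and 1078 in G4. The groups did not overlap, and the log2 fold changes against WT were 0.67 in G1 and 1.70 (SE 0.11) in G4. In the last exon of Tdgf1, the PB1D9 copy starting at 110940083 had 1273, 1214 and 1348 CPM in WT, 2075, 1811 and 1960 in G1, and 4554, 5493 and 5091 in G4. Its log2 fold change in G4 against WT was 1.98 (SE 0.08), and the neighbouring PB1D9 copy at 110940246 changed by 1.89 (SE 0.08).

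All 5 intronic copies of Nanog that passed the filter had their highest mean in G1, though for B2_Mm1a G1 (13.9 CPM) and G4 (13.5) were close. Of the 5, PB1D9, B2_Mm2 and B1_Mur1 had passed only through G1, so the values of these 3 are given without a test. The PB1D9 copy (start 122712966) had 7.30, 4.18 and 2.88 CPM in WT, 21.9, 16.9 and 14.3 in G1, and 6.61, 6.41 and 9.90 in G4. All G1 libraries were above the others, while WT and G4 overlapped. The B3 copy (start 122712324) had 13.6, 15.7 and 10.6 CPM in WT, 27.2, 39.1 and 28.6 in G1 and 14.3, 21.1 and 18.9 in G4. The B3 copy was called higher in G1 than in WT (log2 fold change 1.26, edgeR adjusted p = 0.00906) and lower in G4 than in G1 (-0.80, edgeR adjusted p = 0.0286).

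The other intronic copies that passed through G1, B2_Mm2 (start 122711955) and B1_Mur1 (start 122712195), had log2 fold changes of 1.73 and 1.92 in G1 against WT. PB1D9, B3, B2_Mm2 and B1_Mur1 did not pass the test in G4 against WT, with log2 fold changes of 0.46 to 1.04. Nor did the B2_Mm1a copy nearer the start of the gene (0.40 in G4 and 0.45 in G1). Of the 6 intronic copies under the filter, 4 had most counts in G4, among them a B1_Mus2 (start 122711402) with 7 counts in WT, 21 in G1 cells and 33 in G4. These copies hold few counts. Over the 6 tested copies of the locus, the number higher in G1 went from 5 to 1 without WT library 3, to 3 without G1 library 1 and to 3 without G1 library 2. The number lower in G4 than in G1 went from 3 to 0 without G1 library 2, to 1 without G1 library 1 or any G4 library, and to 2 without G1 library 3.

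Summed over all 11 intronic copies of Nanog, filter or not, the level was 52.2, 52.3 and 37.5 CPM in WT, 115, 123 and 113 in G1, and 77.1, 76.0 and 95.4 in G4. No groups overlapped, and the highest was G1. The 3 exonic copies together had 1303 ± 95.9 CPM in WT, 2176 ± 155 in G1 cells and 3841 ± 382 in G4 (SD, n = 3), so the highest exonic level was in G4. Intronic counts were therefore 3.54% ± 0.82 of the exonic and intronic counts in WT, 5.14% ± 0.54 in G1 cells and 2.11% ± 0.21 in G4. This ratio was examined after the values of the single copies had been seen and was not tested. Over the whole table, intronic copies took 33.6% to 36.2% of the counts in WT, 34.9% to 37.4% in G1 and 35.3% to 40.0% in G4, so the share over the table was not lower in G4.

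Intronic copies of Tdgf1 were also among those that rose in G4. The 7 intronic copies summed to 67.8 ± 9.08 CPM in WT, 123 ± 4.61 in G1 cells and 167 ± 29.7 in G4 (SD, n = 3), and the 4 exonic copies to 4320 ± 170, 6501 ± 257 and 17118 ± 1644. The intronic share was 1.39% to 1.83% in WT, 1.73% to 1.94% in G1 and 0.76% to 1.19% in G4, so G4 lay below both other groups, a difference seen after the fact and not tested. Of the single intronic copies the B2_Mm1a at 110943750 had the lowest adjusted p, with 12.5, 18.8 and 12.5 CPM in WT and 48.4, 46.7 and 36.0 in G4 (log2 fold change 1.57, SE 0.27, edgeR adjusted p = 3.88e-05). Others that rose were a B2_Mm2 that overlaps an exon of the gene (1.40), a PB1D9 at 110941295 (1.32), B1F (1.12) and B1_Mus2 (1.02). ID_B1 (1.68) and RMER5 (1.23) had passed the filter only through G4. The copy that missed the threshold, RSINE1, differed by 0.77 (edgeR adjusted p = 0.257). The 4 Tdgf1 copies called higher in G1 became 2 without WT library 3 and 2 without G1 library 3.

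At Platr14 exonic and intronic copies both rose in G4. The largest, an RMER19B that is partly exon (chr2:104568087-104568725), had 259, 354 and 290 CPM in WT, 336, 275 and 302 in G1, and 1371, 1584 and 1456 in G4. WT and G1 overlapped as they did for the LTR, and the log2 fold change of G4 against WT was 2.29 (SE 0.11). The exonic RMER19B at 104567944 changed by 2.30 and the exonic B2_Mm2 at 104568726 by 2.21. These exonic copies share divided reads with the LTR, so their values are given without a test.

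In the introns of Platr14 the RMER19C near the end of the gene had 28.2, 16.7 and 25.0 CPM in WT, 36.6, 41.7 and 36.4 in G1, and 166, 196 and 165 in G4, a log2 fold change of 2.91 (SE 0.18, edgeR adjusted p = 1.4e-12). The other intronic copies that rose were PB1D10 (2.96), both Lx9 (2.54 and 2.44) and B3 (2.26). MTB (2.73), RMER17A (1.74), MTEa (1.62), RMER10B (1.49) and MTD (1.12) had passed the filter only through G4 and are given as values. Summed over 26 intronic copies, the level was 164 ± 9.47 CPM in WT, 221 ± 35.8 in G1 cells and 802 ± 51.8 in G4 (SD, n = 3). The intronic share was 15.7% to 21.5% in WT, 19.9% to 27.2% in G1 and 18.5% to 19.3% in G4, so WT and G4 overlapped.

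At Cdh1 the 83 intronic copies held only 98 counts in WT, 123 in G1 cells and 66 in G4. Their summed level was 47.0, 11.5 and 40.4 CPM in WT, 50.2, 26.6 and 49.6 in G1 and 26.4, 21.1 and 17.1 in G4. Every G4 library was below every G1 library and WT overlapped both, and no test was made since no copy passed the filter.

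**Figure D2:**
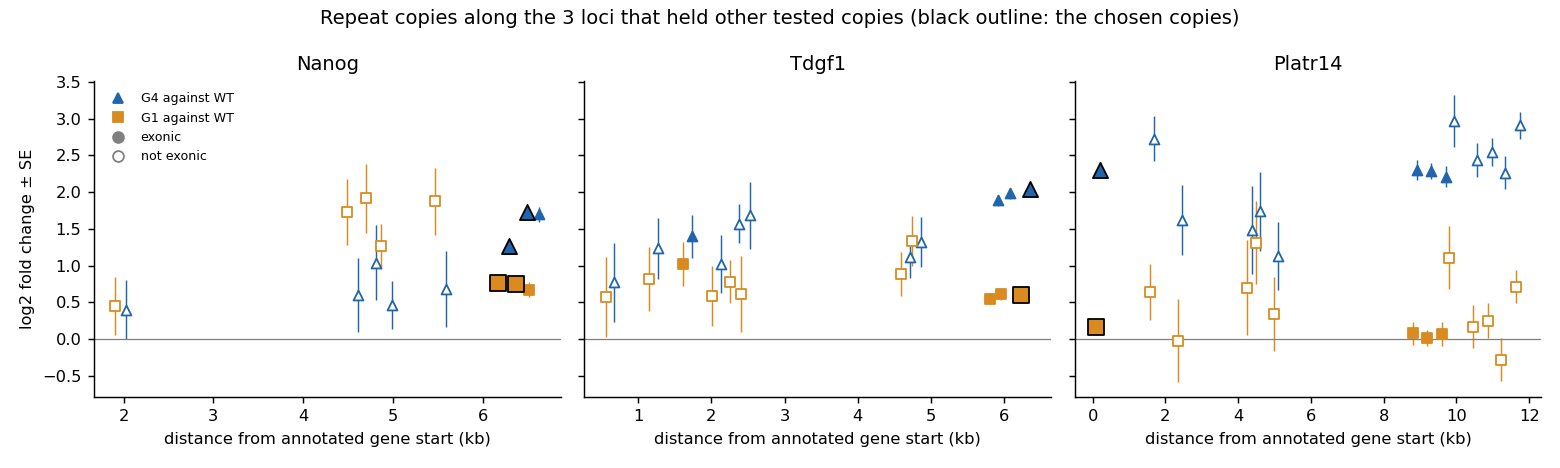
Log2 fold change with its SE (y axis) of every copy that passed the filter at Nanog, Tdgf1 and Platr14, by distance of the copy from the annotated start of the gene in kb (x axis; the contrasts are drawn slightly apart). Filled points overlap exons, open points do not, and the chosen copies have a black outline. At Nanog the G1 squares of the introns (up to 1.92, 3 of them copies that passed only through G1) are above the G4 triangles, and at the exons the order is the opposite.

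**Figure D3:**
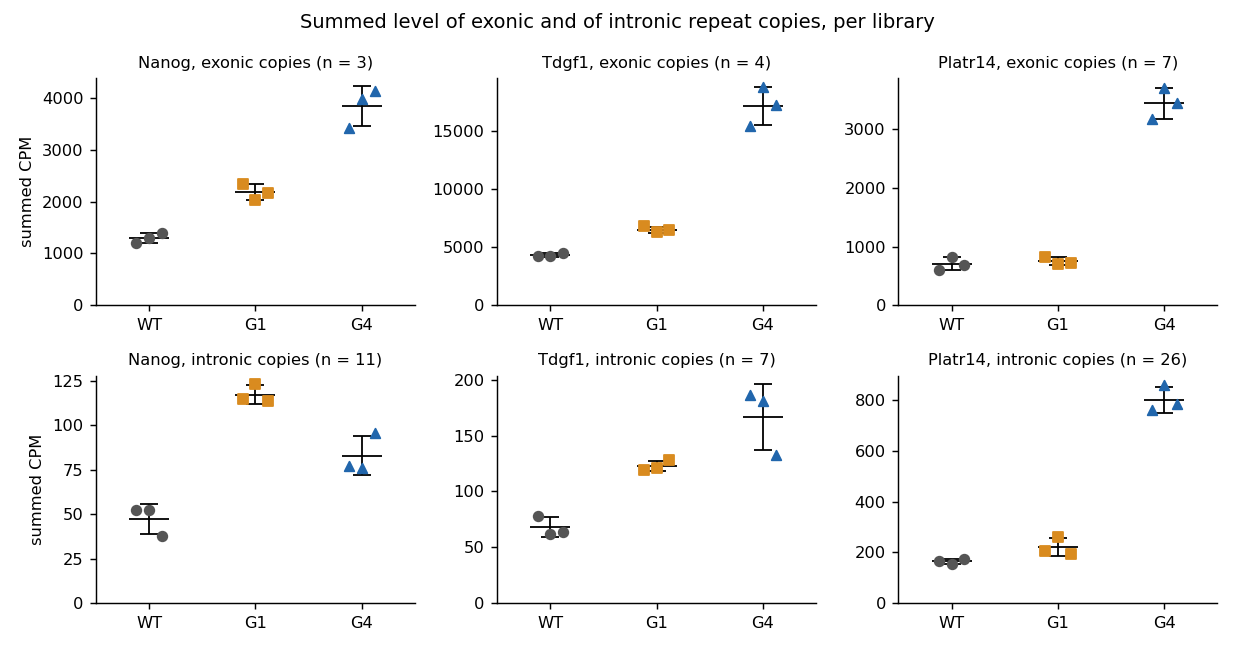
Summed CPM of exonic copies (upper row) and intronic copies (lower row) of Nanog, Tdgf1 and Platr14 in every library (points), with the group mean and SD (black; y axes from 0). Nanog introns are highest in G1 (113 to 123 CPM), whereas Nanog exons are highest in G4.

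Whether the repeat type itself moved was read from the other copies of each name. Of 113 other B2_Mm1a copies that passed the filter, 27 were higher and 11 lower in G4 than in WT (median log2 fold change 0.17), where over all copies 21.3% were higher and 21.3% lower. For B1_Mus2 the counts were 68 higher and 67 lower of 395 (median 0.05), for B1F1 14 and 37 of 102 (-0.19), and for B1_Mur3 28 and 33 of 160 (-0.05). The median over all copies was -0.02.

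RLTR16B_MM is a rare name, with 104 other copies, of which only 2 passed the filter, 1 of them only through G4. The copy at chr18:57373682-57374338, in exons of Prrc1 and of 4930511M06Rik, had 13.6, 20.9 and 36.5 CPM in WT, 39.7, 39.1 and 44.1 in G1, and 738, 871 and 798 in G4. The log2 fold change of G4 against WT was 5.06 (SE 0.18, edgeR adjusted p = 9.88e-18), and that of G1 was 0.77 (edgeR adjusted p = 0.0454). The copy inside Klhl13 on chromosome X was at 0 in all G1 and in 2 of 3 WT libraries, and at 16.5, 11.9 and 9.90 CPM in G4 . It passed the filter only through G4, and without G4 library 2 no longer did. All 104 other copies together held 234 counts in WT, 335 in G1 cells and 2830 in G4, of which the copy in Prrc1 had 71, 122 and 2508.

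Surroundings of the loci are given as counts of copies called, where 21.3% of all copies tested were higher and 21.3% lower in G4 than in WT. Copies that passed the filter through 1 group only were not set apart here. Within 1 Mb of the Platr14 copy, leaving out its own locus, 37 copies passed the filter, of which 4 were higher and 16 lower in G4 than in WT (median log2 fold change -0.61). Around Nanog 9 of 29 were higher and 0 lower (median 0.35), whereas over all of chromosome 6 there were 86 higher and 184 lower of 573 (median -0.36). Within 1 Mb of Tdgf1 3 were higher and 3 lower of 10, and within 1 Mb of Cdh1 7 and 10 of 52.

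Other genes known for pluripotency were read through repeats in their exons, as sums over copies with at least 0.5 of their length in exons. Of 60 genes on a general and a naive list, without Nanog and Tdgf1, 24 could be tested. The naive list holds genes linked to the ground state of ESCs, and not all of them are specific to it. In G4 against WT, 16 of the 24 rose and 1 fell. Over all 4735 genes tested, 24.4% were higher and 24.0% lower (median 0.01). Of the 24, Esrrb, Prdm14, Manba, Morc1 and Mras had passed the filter only through G4, and of the other 19 genes 11 rose (median 0.60), beside 21.1% of all genes that passed without G4. In G1 against WT 9 rose and 1 fell, beside 4.58% and 6.5% of all genes, and none of the 9 had passed only through G1 (4.55% of all genes that passed without it were higher). In G4 against G1, with the same 5 genes among the 24, 14 were higher and 3 fell, beside 20.7% and 22.3%. With scaling to library totals the split of all genes in G4 against G1 was 1188 higher and 822 lower in place of 978 and 1058. The lists were drawn up with earlier results of these data known.

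On the naive list, 5 of the 7 genes that passed without G4 rose in G4 against WT and 1 of all 12 fell. Prdm14, a repressor of lineage genes in naive cells, had 3.18, 4.18 and 3.84 CPM in WT, 12.9, 13.8 and 5.65 in G1, and 57.7, 63.8 and 72.2 in G4. Its G4 libraries, through which alone it passed the filter, were above all others (log2 fold change 4.07), and WT and G1 did not overlap. Tfcp2l1, a transcription factor downstream of LIF and Stat3, was the most abundant of the list, at 1277 CPM on average in WT, 2210 in G1 cells and 4032 in G4 (1.66, SE 0.06, edgeR adjusted p = 2.15e-30). Jam2, an adhesion molecule of the immunoglobulin type, rose by 3.25 (edgeR adjusted p = 3.23e-24). Esrrb, an orphan nuclear receptor of the pluripotency network that passed only through G4, had a log2 fold change of 2.77. The gene that fell was Lifr, the receptor chain for LIF (-1.36).

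On the general list 6 of 12 rose and none fell in G4 (median 0.50). Dppa2, a chromatin factor of early embryos, had 82.6, 113 and 91.3 CPM in WT, 147, 125 and 159 in G1 and 210, 214 and 232 in G4. Its groups did not overlap (log2 fold change in G4 1.20, edgeR adjusted p = 1.53e-10). Trim28, a corepressor that silences retroviral elements, rose by 0.94 (edgeR adjusted p = 0.00787), a call that was lost without G4 library 1. L1td1, an RNA-binding protein and the most abundant of the list, was at 5159 CPM in WT, 6102 in G1 cells and 5419 in G4. It passed in G1 against WT (0.24, edgeR adjusted p = 0.000507) and not in G4 against WT (0.07, edgeR adjusted p = 0.257), although with scaling to library totals it passed there too. On the primed list, for the later epiblast-like state, Etv5 alone of 22 genes could be tested, and it rose by 0.94.

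Of 25 other genes around Nodal and Cripto, 3 could be tested. Gdf3, a ligand of the same family that also uses the Cripto co-receptor, had 94.2, 106 and 105 CPM in WT, 155, 132 and 140 in G1 and 192, 210 and 211 in G4. Its groups did not overlap (log2 fold change in G4 1.01, SE 0.13, edgeR adjusted p = 6.52e-09). Gdf3 is also on the general pluripotency list and is counted among the genes that rose there. Furin, a protease that cuts the Nodal precursor, was at 32.8, 31.3 and 32.7 CPM in WT, 15.0, 23.9 and 18.1 in G1, and 1.07, 0 and 1.74 in G4. It was called lower in G4 (edgeR adjusted p = 4.14e-11), and Smad2, which carries the signal to the nucleus, differed by -0.20 without passing.

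Genes of epithelial junctions were read in the same way. Of 39 other genes 9 could be tested, and in G4 against WT 6 fell and 1 rose (median -1.10), beside 24.0% lower and 24.4% higher over all genes. None of the 9 had passed only through WT, and 23.4% of all genes that passed without WT were lower. Dsg2, a desmosomal cadherin, had 478, 496 and 501 CPM in WT, 297, 292 and 295 in G1, and 104, 100 and 130 in G4. The groups did not overlap (log2 fold change in G4 -2.14, SE 0.11, edgeR adjusted p = 7.26e-24, and -0.74 in G1, edgeR adjusted p = 7.19e-08), whereas Cdh1 itself overlapped between G1 and WT. Cldn6, a claudin of tight junctions, fell from 672 CPM in WT to 531 in G1 and 155 in G4 (-2.11 in G4, edgeR adjusted p = 1.93e-25). Ocln, the tight junction protein occludin, fell by 1.79 on the log2 scale (edgeR adjusted p = 1.64e-05), and Esrp2, Marveld2 and Vcl also fell (-1.10, -1.07 and -1.39, the last through a copy that another gene also covers). Epcam, an epithelial adhesion molecule, rose by 0.71. Of 18 genes on a mesenchymal list 2 could be tested, and both rose, beside 24.4% of all genes. Fn1, fibronectin, rose by 2.17 and the homeobox gene Prrx1 by 1.49 (edgeR adjusted p = 1.28e-05 and 4.09e-06). Their levels were low, with a sum of 18.8 to 31.7 CPM in WT and 65.6 to 97.4 in G4.

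Of the noncoding RNAs on the list of Platr14, 14 could be tested through exonic copies, and in G4 against WT 11 rose and 1 fell, beside 24.4% and 24.0% of all genes. Platr5, Platr8, Platr11 and Panct2 had passed the filter only through G4. Of the other 10 genes 7 rose (median 0.77), beside 21.1% of all genes that passed without G4. In G1 against WT 1 of the 14 rose, Rian (0.51), beside 4.58% of all genes. Platr11 had 4.23, 1.04 and 0.96 CPM in WT, 1.07, 5.51 and 10.2 in G1, and 72.7, 93.0 and 111 in G4 (log2 fold change 5.42). WT and G1 overlapped, as for Platr14. Platr27 rose by 2.43 in G4 (edgeR adjusted p = 1.13e-20), and the log2 fold change of Platr5 was 2.44. Lncenc1, the most abundant of the list at 461 CPM in WT, rose by 0.31 (edgeR adjusted p = 0.00211). Malat1 fell by 0.88, through a copy that another gene also covers. Platr2, Platr16 and Platr21, without a tested exonic sum, each had 1 copy in the gene body called higher in G4 than in WT and 0 lower. The Platr2 copy had means of 3.40 CPM in WT and 6.34 in G1, and the Platr16 copy 4.42 and 5.72. These levels are too low for 3 libraries to reach the filter without G4. Both copies therefore had to be higher in G4. For the Platr21 copy this was not examined. Platr13 has no exonic copy in the table, but 4 copies in its body passed the filter, 3 of them only through WT (log2 fold changes in G4 -4.99, -3.74 and -2.53). The fourth, an RLTR1B-int at chr11:41220807-41223475, was at 159 CPM on average in WT, 53.1 in G1 cells and 7.31 in G4 (log2 fold change -4.46, edgeR adjusted p = 3.53e-14), and it was lower in G1 too (-1.58, edgeR adjusted p = 2.98e-07).

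**Figure D4:**
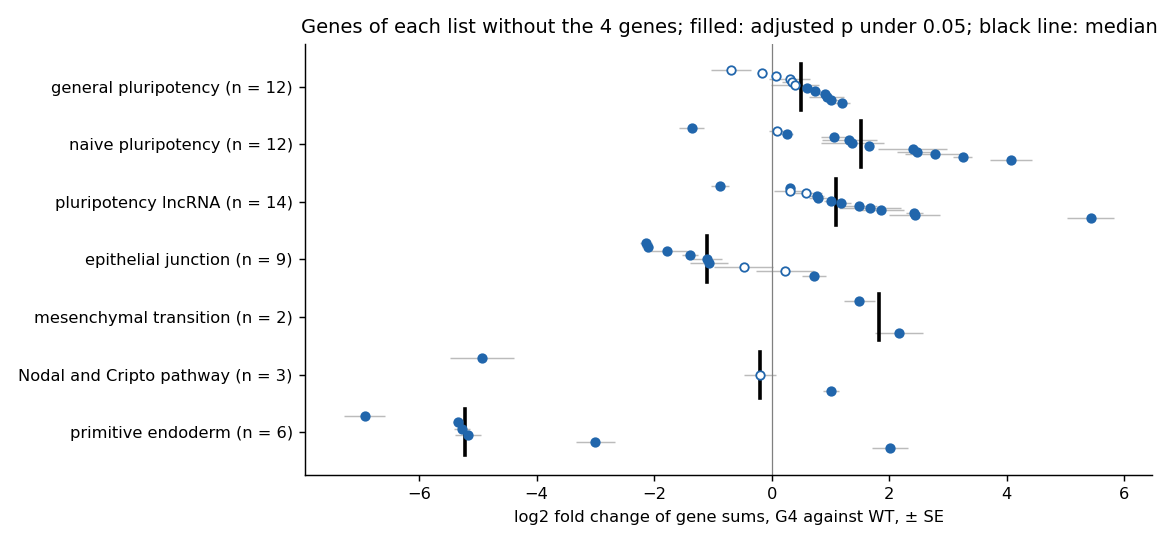
Log2 fold change with its SE of the gene sums in G4 against WT (x axis) for the tested genes of each list (rows), without Nanog, Tdgf1, Cdh1 and Platr14. Filled points passed an adjusted p under 0.05 and black lines are medians: 1.51 for naive pluripotency, 1.10 for the noncoding RNAs, -1.10 for epithelial junctions and -5.22 for primitive endoderm. The points include genes that passed the filter only through G4, without which the first 2 medians are 1.06 and 0.77.

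Markers of another cell type also differed between the groups. Primitive endoderm is the extraembryonic layer that can arise in ESC cultures. Of 20 of its markers 6 could be tested. In G4 against WT 5 were lower and 1, Sparc, was higher (2.01), beside 24.0% lower and 24.4% higher over all genes. None of the 6 had passed the filter only through WT, and 23.4% of all genes that passed without WT were lower. The same 5 were lower in G1 than in WT, beside 6.5% of all genes. The summed level of all 6 ranged from 4695 to 4811 CPM in WT, 2096 to 2233 in G1 and 142 to 176 in G4. Gata4, a defining transcription factor of this layer, was at 705 to 769 CPM in WT, 326 to 378 in G1 and 12.8 to 24.8 in G4. Col4a2, a basement membrane collagen, fell by 5.33 on the log2 scale in G4, and Srgn, serglycin, was at 0 in 1 G4 library. The part of these cells or transcripts in the levels of Nanog, Tdgf1, Cdh1 and Platr14 was not tested.

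Of 18 feeder fibroblast markers Col1a1 alone could be tested, at 44.0 CPM in WT, 69.5 in G1 cells and 84.9 in G4 (log2 fold change 0.95 in G4, edgeR adjusted p = 3.6e-05), and its part was not tested either. Tead4 (trophectoderm) and Msx1 (mesoderm) did not pass in G4 against WT (-0.18 and -0.83), and no neuroectoderm marker could be tested. Of the list for 2-cell-like cells, Usp17lc was at 0 in all WT and G1 libraries and at 9.57 to 13.9 CPM in G4. Usp17lc had passed the filter only through G4, so it had to be higher there. Zfp809 fell by 0.48.

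Copies elsewhere whose log2 CPM ran most like the chosen ones over the 9 libraries were sought among 5921 to 5930 copies with at least 20 CPM on average. For Nanog B2_Mm1a the closest 3 were all in exons of Tfcp2l1 (Pearson r 0.984, 0.983 and 0.983), and for Nanog B1_Mus2 they were a B3A in Arl14epl (0.993) and an MTB and an L1M4 in Tfcp2l1 (0.990 and 0.989). Tdgf1 B1F1 was closest to an L1_Mus1 copy outside genes (0.994), a PB1D9 in Pdk1 (0.993) and an IAPEz-int in Rnf157 (0.992). Cdh1 B1_Mur3 ran with 3 RLTR1B-int copies outside genes (0.996 to 0.997), which had 346, 419 and 355 CPM in WT and 34.4, 41.5 and 42.8 in G4. Platr14 ran with copies in Pnkd, Dcaf17 and Helb (0.997, 0.995 and 0.995). Between the chosen copies r was 0.838 for Nanog B2_Mm1a with Platr14 and -0.995 for Cdh1 with Platr14, the latter pair sharing a G1 level like that of WT. These values describe 9 points in 3 groups, which share their libraries and scaling.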

How the data were processed

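The data are RNA-seq of mouse ESCs, with 3 libraries per group (WT, and Terc-/- of generations G1 and G4; 9 in all). Per the labels, reads were processed with FastQC 0.11.9, STAR 2.5.3a and featureCounts on mm10. The authors deposited estimated count values per repeat copy, in which 55092 copies have values that are not whole, so shared reads had been divided by a rule not given in the sources used here. The signal values deposited by the authors are these counts divided by 1 size factor per library and served only to check that relation. Columns headed Control were taken as the WT libraries. Whether counting used strand is not given, so sense and antisense RNA cannot be told apart.

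After rounding, counts passed filterByExpr (at least 10.1 CPM, before TMM, in 3 libraries), were scaled by TMM and were tested with edgeR 4.0.16 in R 4.3.3 (quasi-likelihood F-test, all 9 libraries in 1 fit, Benjamini-Hochberg adjustment over 13278 copies). Genes (4735) were tested as sums of copies with at least 0.5 of their length in exons (GENCODE M21). SDs are over 3 libraries, and their number and depth (918879 to 1137257 counts) limit the precision. Named were the chosen copies, every tested copy at the 4 loci, per list the 3 called genes with the largest change in G4 against WT and the most abundant one, and per chosen copy the 3 most alike. Genes outside this rule (Lifr, Smad2, Esrp2, Marveld2, Vcl, Epcam, Rian, Malat1, Sparc, Manba, Morc1, Mras, Platr8, Panct2, Platr2, Platr16, Platr21 and Platr13) were named after their values were seen. The copies and gene lists were chosen with earlier results of these data known. Alternatives were DESeq2 1.42.0 size factors or library totals for scaling, a filter of 10 counts in total, fits of 2 groups, a replicate block, DESeq2's Wald test, whole-valued copies, any exon overlap, leaving out chromosome 6, and leaving out each library. Intron shares, and counts without the features that passed the filter through 1 group only, were added after the data were seen. The fits were tested on simulated data.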

Additional observations from a re-analysis of the deposited data

How the results depend on the processing

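All 15 log2 fold changes of the chosen copies kept their sign under every scaling, filter and edgeR fit tried. Their values under DESeq2's Wald test were not examined. The log2 fold changes of G4 against WT ranged from 1.21 to 1.32 (Nanog B2_Mm1a), 1.62 to 1.81 (Nanog B1_Mus2), 1.98 to 2.12 (Tdgf1), -1.31 to -1.17 (Cdh1) and 2.21 to 2.36 (Platr14). Those of G1 against WT ranged from -0.12 to -0.04 for Cdh1 and from 0.05 to 0.23 for Platr14. With 1 library left out at a time, Tdgf1 in G1 against WT ranged from 0.54 to 0.61.

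Among the other copies at the loci, DESeq2's Wald test called 3 higher at Nanog and 2 higher at Tdgf1 in G1 against WT, and 0 lower at Nanog in G4 against G1. With the filter of 10 counts in total, these were 2 higher at Tdgf1 in G1 against WT and 0 lower at Nanog in G4 against G1. Leaving out 1 library gave 1 to 2 higher at Nanog in G4 against WT, 1 to 5 in G1 against WT and 0 to 2 lower in G4 against G1, 2 to 3 higher at Tdgf1 in G1 against WT, and 1 to 2 higher RLTR16B_MM copies. Pluripotency genes lower in G4 against WT numbered 1 to 2, and those lower in G1 against WT 0 to 1 (0 by DESeq2). Of single copies called in G4 against WT, RMER10B at Platr14 and B1_Mus2 and RMER5 at Tdgf1 were lost under DESeq2's Wald test, and RMER17A at Platr14 and ID_B1 at Tdgf1 without G4 library 2. Whole-valued copies alone left 8 noncoding RNAs to test, of which 6 rose. Library totals moved the median of all genes in G4 against WT from 0.01 to 0.11, and no call of a named gene changed sign.

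Libraries of the same number share only a number: their deviations correlated by -0.02 to 0.02. With the replicate block, Nanog, Tdgf1 and Platr14 copies higher in G4 against WT numbered 1, 9 and 11, 15 pluripotency genes rose, and the block moved no count by over 1.5 times.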
